A study of Homo sapiens with 20 samples.

Results

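CD33 and 6 other Siglec receptor genes, SIGLEC1, SIGLEC5, SIGLEC6, SIGLEC7, SIGLEC9 and SIGLEC10, were followed across 20 RNA-seq libraries. The members were chosen by gene name. They matched 8 of the 35168 rows of the gene table, since SIGLEC5 has 2 Ensembl IDs, and 41 of the 170068 rows of the transcript table. Of the 5 human lines sampled, 3 are leukemic (THP-1, NOMO-1 and Kasumi-1, all acute myeloid leukemia, AML) and 2 are endothelial (TIME and iHUVEC), of the kind that forms the inner lining of vessels. Each line was sampled untreated and after 24 h with IFNg (interferon gamma), TNFa (tumor necrosis factor alpha) or both (IFNg+TNFa), at 10 ng/ml each. Each line gave 1 library per condition, so the line is the replicate (n = 3 AML lines and n = 2 endothelial lines), and nothing repeats a condition within a line. Each line was grown alone in culture, and no primary leukemia or vessel was sampled. Values are TPM, a level corrected for transcript length and scaled to a common library total. Differences are log2 differences of TPM + 1 with limma's moderated standard error, and a call means a Benjamini-Hochberg adjusted p below 0.05 over all genes tested.

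Siglecs are cell surface lectins that bind sialic acid, the sugar that caps many glycoproteins and glycolipids. Most members of the CD33-related group carry a cytoplasmic ITIM, a tyrosine motif that recruits the phosphatases SHP-1 and SHP-2 once a Src family kinase has phosphorylated it, which restrains activating signals. SIGLEC1 (sialoadhesin) has no such motif and is known as a macrophage receptor that interferons raise. CD33 marks the myeloid lineage and is the target of antibody and engineered T-cell therapies against AML, for which expression on normal tissues such as endothelium matters.

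Summed endothelial and myeloid marker levels matched the labelled cell types. The summed level of 8 endothelial markers was 1013 to 3267 TPM in endothelial libraries and 1.68 to 337 TPM in AML libraries. There CDH5, KDR and TEK stayed under 0.1 TPM, while 3 of the 8 reached 1 TPM in at least 1 AML library. The summed level of 10 myeloid and hematopoietic markers was 461 to 6229 TPM in AML libraries and 6.72 to 18.2 TPM in endothelial ones. There MPO and PTPRC stayed under 0.1 TPM, while 4 of the 10 reached 1 TPM in at least 1 endothelial library. Lymphoid markers summed to 12.8 to 63.1 TPM in AML and 0.215 to 0.661 TPM in endothelial libraries, epithelial markers to 0.250 to 107 TPM and 38.8 to 369 TPM, and fibroblast and mural markers to 0.635 to 3.83 TPM and 4.11 to 855 TPM. Their part in the results was not tested. The 4 NOMO-1 libraries stand apart. Mitochondrially encoded genes held 73.2 to 82.1% of their TPM, against 11.9 to 24.8% in the other 16, and 7510 to 9549 genes reached 1 TPM in them, against 11334 to 12353. Every other gene of NOMO-1 is lowered on the TPM scale by this, so levels are compared between NOMO-1 and other lines only with that limit. Depth is unknown, because TPM keeps no total.

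CD33 lies on chromosome 19 at 51225064-51243860, plus strand (GENCODE v29, GRCh38), within the cluster that also holds SIGLEC5, SIGLEC6, SIGLEC7, SIGLEC9 and SIGLEC10. SIGLEC1 lies apart, on chromosome 20 at 3686970-3707128, minus strand. The results on CD33 turn on which of its 7 annotated transcripts the reads were assigned to, and the junctions below tell those transcripts apart. Each line gives 20 bases before a splice junction in lower case and 20 bases after it in capitals, plus strand, from GENCODE v29. The first is the join of exon 1 to exon 2 in the full-length transcript (ENST00000262262). Exon 2 (chr19:51225218-51225598, 381 bases) encodes the V-set domain, the part that binds sialic acid and that gemtuzumab and many other CD33 antibodies recognise. The second is the join of exon 1 to the next exon in the skipping transcript (ENST00000421133), which lacks exon 2. The third is the only junction of the short noncoding transcript (ENST00000600557), which has 2 exons and 536 bases, of which 498 lie inside the last exon of the full-length transcript, and the last is the join of exons 6 and 7 of the full-length transcript, which uses the same acceptor.
Full-length transcript, exons 1 and 2: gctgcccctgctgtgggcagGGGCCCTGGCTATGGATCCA
Skipping transcript, exon 1 and its next exon: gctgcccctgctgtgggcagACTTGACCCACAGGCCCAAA
Short noncoding transcript, exons 1 and 2: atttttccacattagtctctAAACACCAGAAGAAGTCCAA
Full-length transcript, exons 6 and 7: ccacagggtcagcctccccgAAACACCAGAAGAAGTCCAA

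The last 2 junctions have identical capitals, so only reads that reach across the join part the short noncoding transcript from the end of the full-length transcript. The coding part of exon 7 (chr19:51239518-51239688, 171 bases with the stop codon, plus strand) holds the inhibitory motifs. It is shown because the short noncoding transcript overlaps it, with the codons of the ITIM (residues 338 to 343 of the 364 that the full-length transcript encodes) and of the ITIM-like motif (residues 356 to 361) in capitals.
Full-length transcript, coding part of exon 7: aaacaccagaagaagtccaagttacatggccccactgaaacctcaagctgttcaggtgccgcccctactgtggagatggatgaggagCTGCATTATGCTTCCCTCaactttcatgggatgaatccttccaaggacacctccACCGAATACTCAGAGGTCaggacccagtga

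The translated reading frames of the full-length transcript and the skipping transcript each hold 1 ITIM and 1 ITIM-like motif, and those of the other coding transcripts, ENST00000391796 and ENST00000436584, which end before exon 7, hold neither. The skipping transcript encodes 237 residues.

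CD33 was present in every AML library and near 0 in every endothelial library, whatever the cytokine. In Kasumi-1 its level was 16.1 TPM untreated, 28.8 with IFNg, 15.4 with TNFa and 11.8 with both. In NOMO-1 it was 39.9, 75.9, 18.6 and 13.5 TPM in the same order, and in THP-1 47.9, 59.5, 60.3 and 45.5 TPM. In iHUVEC it was listed at 0 untreated and with TNFa, and was 0.188 TPM with IFNg and 0.202 TPM with both. In TIME it was 0.0551, 0.304, 0.357 and 0.321 TPM. The lowest AML library (11.8 TPM) therefore stood above the highest endothelial library (0.357 TPM), and no cytokine brought either endothelial line to 1 TPM. The mean over the 3 AML lines was 34.6 ± 16.6 TPM untreated (SD, n = 3), 54.7 ± 23.9 with IFNg, 31.4 ± 25.0 with TNFa and 23.6 ± 19.01 with both. With 1 library per line and condition, neighbours in this order cannot be separated from library-to-library variation.

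CD33 was higher in AML than in endothelial lines in all 4 conditions. It entered these tests, which used genes at 1 TPM or more in at least 2 libraries, through the AML libraries only. With endothelial levels near 0, the size of the difference depends on the pseudocount and gives no fold. The difference was 4.98 ± 0.77 untreated (adjusted p = 0.00894), 5.38 ± 0.76 with IFNg (adjusted p = 0.00529), 4.54 ± 0.96 with TNFa (adjusted p = 0.0173) and 4.03 ± 1.17 with both (adjusted p = 0.0297). For comparison, 8.49%, 9.05%, 8.09% and 6.8% of all tested genes were called in these 4 comparisons, and most of them were lower in AML. The median difference over all genes was -0.88, -0.75, -0.93 and -0.83, and relative to it CD33 stood at 5.86, 6.13, 5.47 and 4.86. CD33 remained called in all 4 conditions with median-of-ratios scaling (4.56 to 5.81) and with mitochondrial genes removed (4.94 to 6.12). Without the filter on low values the call was lost with TNFa (adjusted p = 0.0890) and with both (0.169), and without the variance trend it was lost with both (0.0627). These comparisons rest on 3 residual degrees of freedom. With either endothelial line left out, the difference was 3.96 to 5.44, and the call was lost in each condition without iHUVEC (adjusted p from 0.0536 with IFNg to 1.00 with both) and in all but IFNg without TIME (0.123 untreated, 0.505 with TNFa and 0.993 with both). Without THP-1 the call with both cytokines was lost (3.44, adjusted p = 0.0619).

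**Figure D1:**
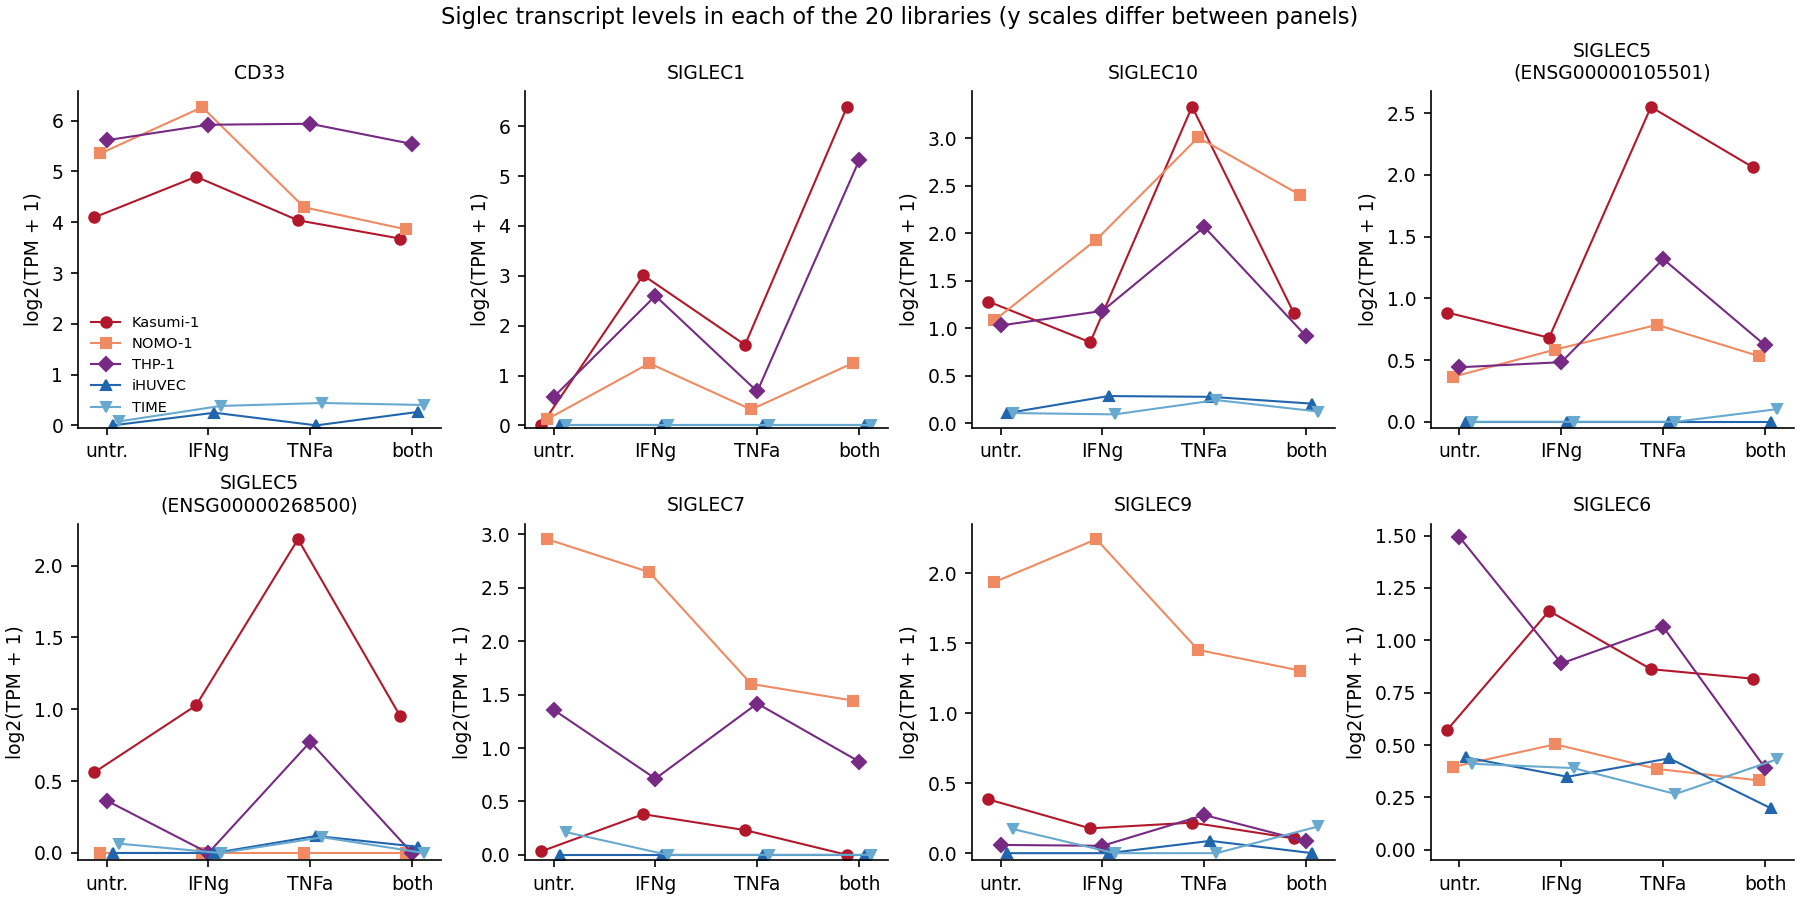
Level of each Siglec row, as log2(TPM + 1), in every library, by condition on the x axis (untr., untreated; both, IFNg+TNFa) and 1 line and marker per cell line. CD33 lies at 11.8 TPM or more in the 12 AML libraries and at 0.357 TPM or less in the 8 endothelial ones, SIGLEC1 is highest with both cytokines in Kasumi-1 and THP-1, and SIGLEC10 is highest with TNFa in each AML line.

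Much of the CD33 level in NOMO-1 and THP-1 was assigned to the short noncoding transcript. Its share of CD33 TPM was 67.9 to 86.2% in the 4 NOMO-1 libraries, 15.3 to 38.7% in THP-1 and 0 to 10.7% in Kasumi-1, so that the ranges of the 3 lines did not overlap. The coding transcripts summed to 12.4, 24.7, 11.8 and 9.87 TPM in Kasumi-1 (untreated, IFNg, TNFa, both). In NOMO-1 they summed to 3.98, 11.1, 2.14 and 3.49 TPM, and in THP-1 to 24.4, 30.1, 42.8 and 23.0 TPM. NOMO-1, which has the highest single CD33 value of the 20 libraries, had the lowest coding CD33 of the 3 AML lines in each condition on the TPM scale. That order depends on the scaling. With mitochondrial genes removed its CD33 total was 166, 283, 94.96 and 75.4 TPM and its coding level 16.6, 41.3, 10.9 and 19.5 TPM, against 14.6, 28.3, 14.3 and 11.4 TPM in Kasumi-1 and 32.4, 37.7, 53.3 and 28.2 TPM in THP-1. NOMO-1 was then lowest with TNFa only and highest with IFNg. With median-of-ratios scaling its coding level was 11.7, 30.8, 9.32 and 19.4, against 8.78, 18.1, 8.25 and 7.05 in Kasumi-1. NOMO-1 was lowest in no condition under that scaling. The shares within CD33 do not change with the scaling. Of the 536 bases of the short noncoding transcript, 498 lie in the last exon of the full-length one, so most of its sequence is shared. ENST00000419548, a SIGLEC1 model at the 3′ end of that gene, held 66.4 to 88.4% of SIGLEC1 TPM in 2 NOMO-1 libraries. It held 40.1 to 49.5% in THP-1 and 22.7 to 36.9% in Kasumi-1. Whether read coverage along transcripts shaped the shares of NOMO-1 was not tested.

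Coding transcripts with and without exon 2 were both present in all AML libraries. Transcripts that lack exon 2 held 29.9 to 49.3% of the coding TPM in Kasumi-1, 41.4 to 72.2% in NOMO-1 and 49.8 to 57.9% in THP-1, mostly as the skipping transcript. The coding level with exon 2 was 5.002 to 14.6 TPM in Kasumi-1, 0.764 to 6.42 TPM in NOMO-1 and 10.3 to 20.9 TPM in THP-1. Of this, the full-length transcript held 0 to 3.80 TPM in NOMO-1, so it was not detected in every AML library. It held at least 4.73 TPM in Kasumi-1 and 9.88 TPM in THP-1. The rest was ENST00000391796, which holds no ITIM. In NOMO-1 the share without exon 2 was 72.2% untreated and 64.2% with TNFa, against 42.1% with IFNg and 41.4% with both, at coding levels of 2.14 to 11.1 TPM. No such split by IFNg appeared in Kasumi-1 (38.6, 41.0, 29.9 and 49.3% in the order untreated, IFNg, TNFa, both). In THP-1 the shares were 57.9, 51.8, 51.2 and 49.8%.

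The shares of the full-length, skipping and short noncoding transcripts in CD33 TPM were tested over the 12 AML libraries, and none was called in any treatment. With both cytokines the short noncoding transcript differed from untreated by -10.5 ± 6.50 percentage points (adjusted p = 0.531), the full-length one by 5.88 ± 4.60 (adjusted p = 0.590) and the skipping one by 3.16 ± 4.69 (adjusted p = 0.786). Among all 11996 transcript shares tested, 0% were called for each of the 3 treatments by limma, while 434, 645 and 1261 had an unadjusted p under 0.05 with IFNg, TNFa and both.

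**Figure D2:**
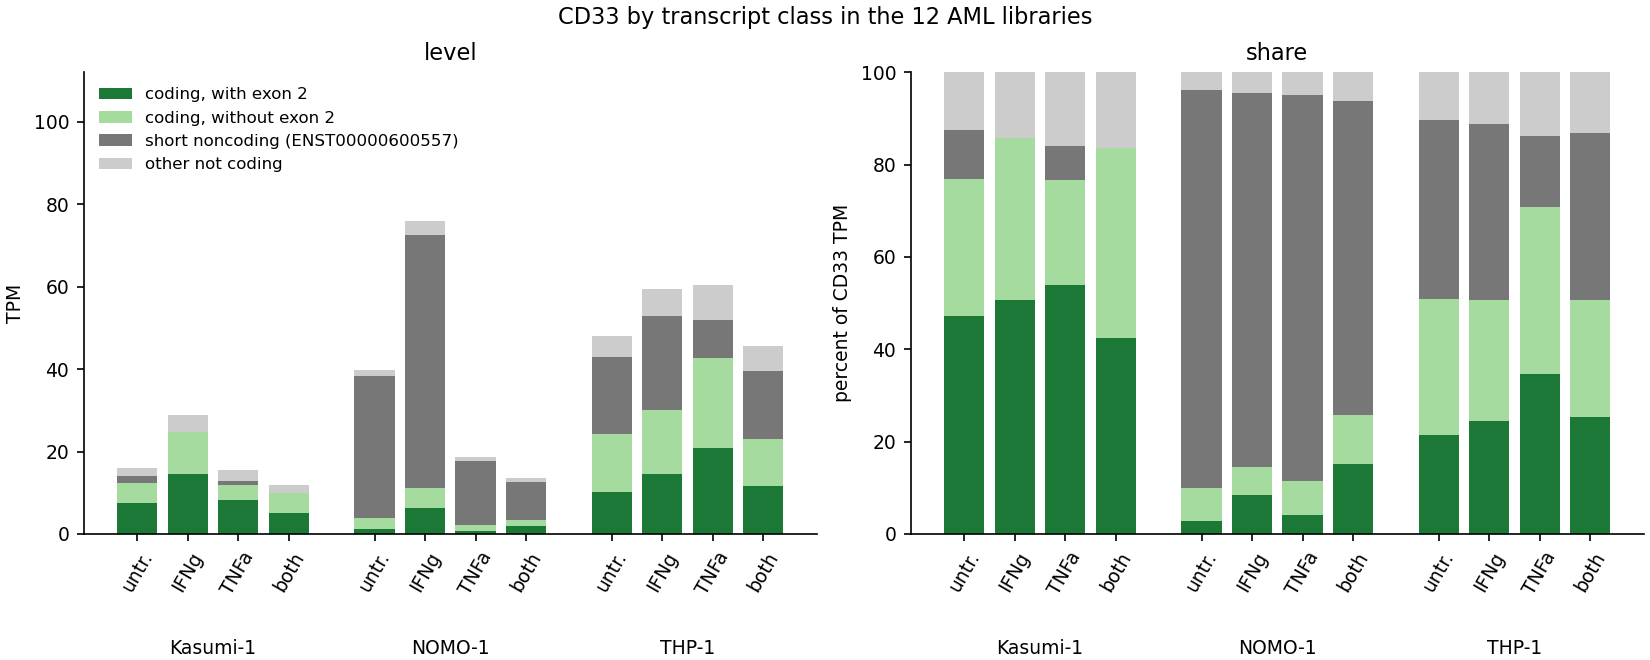
CD33 by transcript class in the 12 AML libraries, as TPM (left) and as percent of the CD33 TPM of the library (right), by line and condition (untr., untreated; both, IFNg+TNFa). The short noncoding transcript fills 67.9 to 86.2% of each NOMO-1 bar and at most 10.7% of each Kasumi-1 bar.

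The comparison with endothelium was repeated with fewer transcripts counted, in alternatives chosen after the data were seen. Since endothelial CD33 was near 0, removing transcripts lowers the difference almost by construction, and its shrinking is no result. The values show only what level and call remain, and they depend on the pseudocount and give no fold. Without the short noncoding transcript the difference between AML and endothelial lines was 3.82 untreated (adjusted p = 0.0283), 4.38 with IFNg (0.00990), 3.67 with TNFa (0.0693) and 3.33 with both (0.0605). With only the coding transcripts that hold exon 2 it was 2.56 (adjusted p = 0.101), 3.50 (0.0157), 2.83 (0.122) and 2.43 (0.0908). The direction was the same in all 8 values, but the call held in only 3 of them. The endothelial level of coding CD33 with exon 2 was listed at 0 in 6 of 8 libraries and was 0.159 TPM in TIME with IFNg and 0.298 TPM in TIME with both.

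**Figure D3:**
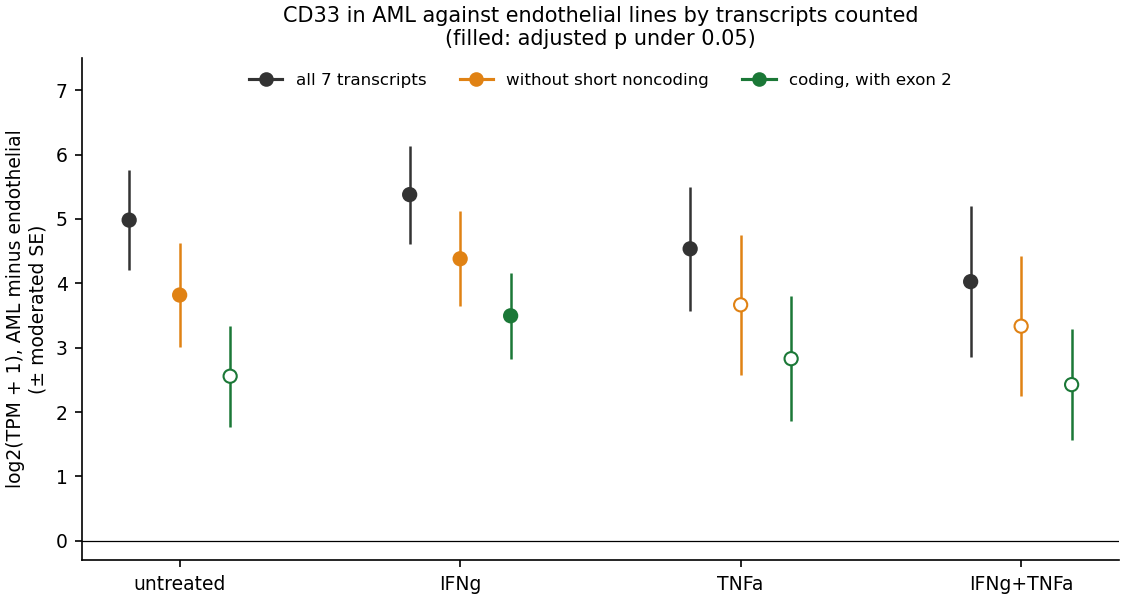
Difference in CD33 between 3 AML and 2 endothelial lines in each condition, as log2(TPM + 1) ± moderated SE, for all 7 transcripts, without the short noncoding transcript, and for coding transcripts with exon 2. Filled points have an adjusted p under 0.05. Values with exon 2 only lie between 2.43 and 3.50, those for all transcripts between 4.03 and 5.38. With endothelial CD33 near 0, counting fewer transcripts lowers the values almost by construction.

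Within the AML lines CD33 was not called for any treatment against untreated, and it was lower with both cytokines than with IFNg alone. The change from untreated was 0.67 ± 0.33 with IFNg (adjusted p = 0.583), -0.26 ± 0.33 with TNFa (adjusted p = 0.960) and -0.66 ± 0.33 with both (adjusted p = 0.149). These comparisons share the untreated libraries. In bulk RNA, fewer cells that express a gene and less RNA per cell cannot be told apart. All 3 lines had more CD33 with IFNg than untreated, by 1.79, 1.90 and 1.24 times in Kasumi-1, NOMO-1 and THP-1. All 3 had less with both than untreated, at 0.734, 0.339 and 0.950 of the untreated TPM, but not with median-of-ratios scaling, where the ratios were 0.738, 0.643 and 1.06. With mitochondrial genes removed they were 0.716, 0.454 and 0.875. CD33 was lower with both cytokines than with IFNg alone (-1.33 ± 0.33, adjusted p = 0.0350), in 3 of 3 lines, while the median gene differed by -0.17 and 7.35% of genes were called. That call does not hold without Kasumi-1, NOMO-1, iHUVEC or TIME (adjusted p 0.113, 0.0786, 0.138 and 0.140). It does not hold without the short noncoding transcript either (-1.03, adjusted p = 0.0636), and the value without NOMO-1 is -0.80. A pseudocount of 0.1, no filter, AML libraries alone and a fit without the line term each end it too (adjusted p 0.0589, 0.0709, 0.101 and 1.0). Counting coding transcripts with exon 2 only, both cytokines against untreated gives 0.06 ± 0.35 (adjusted p = 0.943) in place of -0.66.

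SIGLEC1 rose with both cytokines in the AML lines. Its level in Kasumi-1 was listed at 0 untreated, 7.06 TPM with IFNg, 2.07 with TNFa and 82.4 with both. In THP-1 it was 0.482, 5.06, 0.603 and 38.8 TPM, and in NOMO-1 0.0925, 1.37, 0.248 and 1.38 TPM. Kasumi-1 and THP-1 were thus highest with both cytokines, while NOMO-1 had about the same TPM with IFNg as with both. With mitochondrial genes removed the values of NOMO-1 were 0.385, 5.11, 1.26 and 7.71 TPM. SIGLEC1 was listed at 0 in all 8 endothelial libraries.

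The change with both cytokines was 4.08 ± 0.68 (adjusted p = 0.00186), in 3 of 3 lines, in a comparison in which 26% of all genes were called and the median gene changed by -0.19. SIGLEC1 was the only member called there. It was also higher with both than with TNFa alone (3.44 ± 0.68, adjusted p = 0.0134, 6.59% of genes called). Against IFNg alone the difference of 2.03 ± 0.68 was not called (adjusted p = 0.0816). The changes with IFNg alone (2.05 ± 0.68, adjusted p = 0.316) and TNFa alone (0.64 ± 0.68, adjusted p = 0.935) were not called either, where 0.645% and 0.0864% of genes were. With NOMO-1 left out, SIGLEC1 passed with IFNg (2.52, adjusted p = 0.0152) and for both against IFNg (3.04, adjusted p = 0.00188). The call with both cytokines held without each of the 5 lines in turn (2.93 to 5.56, adjusted p at most 0.0250) and with AML libraries alone (adjusted p = 0.00882), but not in a fit without the line term (0.0631). The call against TNFa alone was lost without Kasumi-1, THP-1, iHUVEC or TIME (adjusted p 0.0792 to 0.127), and with AML libraries alone (0.0516).

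Both annotated SIGLEC1 transcripts rose with both cytokines. ENST00000419548, an annotated model of 5 exons at the 3′ end of the gene, rose by 3.12 ± 0.50 (adjusted p = 0.00638), and the full-length ENST00000344754 by 3.42 ± 0.75 (adjusted p = 0.0268). The full-length transcript held 77.3% of the SIGLEC1 TPM with both cytokines in Kasumi-1, 50.5% in THP-1 and 11.6% in NOMO-1. They were the only called transcripts of any member, where 4.26% of all transcripts were called with both cytokines, 0.124% with IFNg and 0.011% with TNFa. Without Kasumi-1 or THP-1 neither transcript was called (adjusted p 0.0606 to 0.198).

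Between cell types SIGLEC1 was higher in AML than in endothelial lines with both cytokines (adjusted p = 0.0326). The fitted difference of 4.32 ± 1.277 depends on the pseudocount, since the endothelial lines are at 0, and it gives no fold. The call was lost without iHUVEC or TIME (adjusted p 1.00 and 0.993) and without the trend or the filter on low values (0.195 and 0.453). With IFNg the difference was not called (adjusted p = 0.0652). A test of the difference between the responses of the cell types to both cytokines gave 4.08 ± 1.07 (adjusted p = 0.0675), where 2.28% of all genes were called. The same test called no member for IFNg or TNFa, where 0.00665% and 0.259% of genes were called.

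SIGLEC10, an ITIM receptor known to bind CD24, was highest with TNFa in each AML line. Kasumi-1 had 1.43 TPM untreated, 0.805 with IFNg, 9.08 with TNFa and 1.23 with both. NOMO-1 had 1.12, 2.82, 7.05 and 4.29 TPM, and THP-1 1.04, 1.27, 3.19 and 0.887 TPM. The 3 values with TNFa (3.19 to 9.08 TPM) lay above the 3 untreated values (1.04 to 1.43 TPM). The share of all genes that part these libraries likewise is not given here, so this alone does not set SIGLEC10 apart. The change with TNFa was 1.67 ± 0.31 and missed the threshold (adjusted p = 0.0706). SIGLEC10 was lower with both cytokines than with TNFa alone (-1.31 ± 0.31, adjusted p = 0.0291), in 3 of 3 lines. That call was lost without Kasumi-1, THP-1, iHUVEC or TIME (adjusted p 0.0923 to 0.157), with median-of-ratios scaling (0.116), without the filter (0.0670) and with AML libraries alone (0.0895). In the endothelial libraries SIGLEC10 was 0.0662 to 0.219 TPM. Its difference between AML and endothelial lines with TNFa was 2.54 ± 0.70 (adjusted p = 0.0522).

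SIGLEC5 was read from 2 rows. ENSG00000105501 is SIGLEC5 in GENCODE v29 (chr19:51611927-51645545, minus strand), and ENSG00000268500 carries the name SIGLEC5 in the gene name table and AC018755.2 in GENCODE v29 (chr19:51612091-51646889, minus strand). Their coding sequences of 1656 bases are identical, and the first 700 coding bases of SIGLEC5 match those of its neighbour SIGLEC14 at 99.9%, with an identical run of 642 bases. How reads were split between these rows is therefore uncertain. The first row had 0.846, 0.603, 4.85 and 3.18 TPM in Kasumi-1, 0.287, 0.4995, 0.723 and 0.446 TPM in NOMO-1 and 0.358, 0.397, 1.49 and 0.537 TPM in THP-1. The second had 0.475, 1.04, 3.54 and 0.940 TPM in Kasumi-1, was listed at 0 in NOMO-1, and was at most 0.709 TPM in THP-1. Each row was highest with TNFa in Kasumi-1 and THP-1. The first row changed by 0.99 ± 0.27 with TNFa (adjusted p = 0.349), and both rows summed changed by 1.13 ± 0.27 (adjusted p = 0.248). In endothelial libraries neither row exceeded 0.0856 TPM.

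SIGLEC7 and SIGLEC9, ITIM receptors whose coding sequences are 87.0% identical, were mainly found in NOMO-1. SIGLEC7 had 6.75, 5.27, 2.03 and 1.72 TPM in NOMO-1 and 1.56, 0.640, 1.67 and 0.832 TPM in THP-1. In Kasumi-1 it did not exceed 0.302 TPM. SIGLEC9 had 2.83, 3.74, 1.74 and 1.47 TPM in NOMO-1 and at most 0.305 TPM in the other AML lines. In endothelial lines SIGLEC7 reached at most 0.159 TPM and SIGLEC9 0.142 TPM. With both cytokines SIGLEC7 differed from untreated by -0.68 ± 0.30 (adjusted p = 0.114) and SIGLEC9 by -0.30 ± 0.20 (adjusted p = 0.289) in AML lines. NOMO-1 held the highest level of both genes in every condition, on a TPM scale that lowers that line.

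SIGLEC6 was low in every line. It ranged from 0.258 to 1.82 TPM in AML libraries and from 0.147 to 0.358 TPM in endothelial libraries, so the cell types overlapped. Its change with both cytokines in AML lines was -0.31 ± 0.22 (adjusted p = 0.324). In the endothelial lines no treatment called any member, where 0.425% of genes were called with IFNg, 1.02% with TNFa and 14.5% with both. All 8 Siglec rows entered the treatment tests, which used genes at 1 TPM or more in at least 2 of 20 libraries. No endothelial library reached 1 TPM for any of the 8 rows, so each row passed that rule through AML libraries. The same rule within each condition let 3 rows into the comparison of cell types untreated (CD33, SIGLEC7 and SIGLEC10), 3 with IFNg and 3 with both (CD33, SIGLEC1 and SIGLEC10) and 4 with TNFa (CD33, SIGLEC7, SIGLEC10 and 1 SIGLEC5 row). Those rows too passed through AML libraries only.

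**Figure D4:**
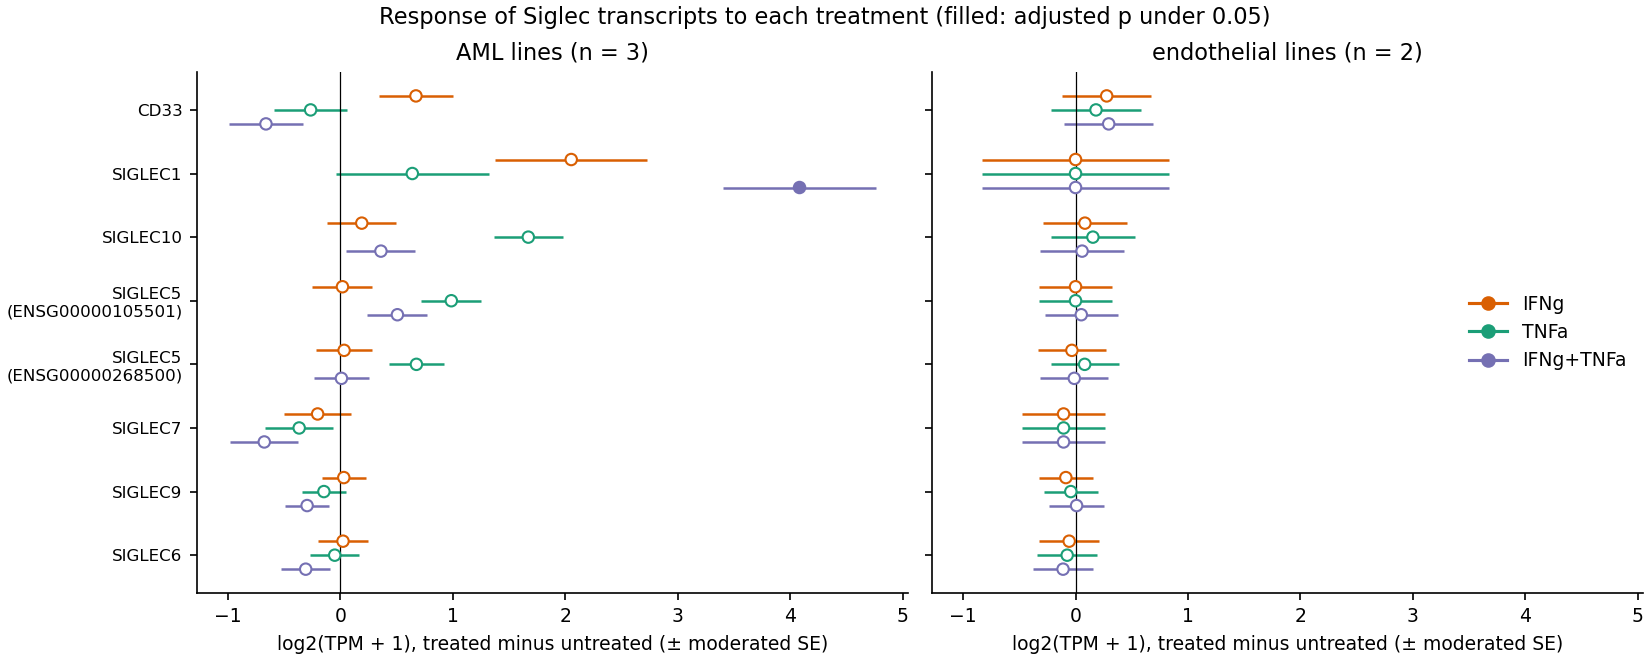
Change of each Siglec row from untreated, as log2(TPM + 1) ± moderated SE, in AML lines (left, n = 3) and endothelial lines (right, n = 2), for IFNg, TNFa and both. The filled point, SIGLEC1 with both cytokines in AML lines at 4.08, is the only one with an adjusted p under 0.05.

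The other Siglec genes were read from a list of 8. SIGLEC12 fell with both cytokines in AML lines (-1.16 ± 0.20, adjusted p = 0.00210), from 21.6 to 13.2 TPM in Kasumi-1, from 3.67 to 0.455 in NOMO-1 and from 3.07 to 0.851 in THP-1, and was listed at 0 in all endothelial libraries. Those libraries entered the same fit and added degrees of freedom but no spread. A fit without the line term ended the call. CD22, a B-cell Siglec, was 18.8 TPM in Kasumi-1 with both cytokines and 0.727 to 0.841 TPM in the other 3 Kasumi-1 libraries, a value of 1 library. SIGLEC16, annotated as a pseudogene, and its paralog SIGLEC11 were highest in NOMO-1 with IFNg, at 13.2 and 5.06 TPM, and reads could be split between them. SIGLEC14, which pairs with the activating adaptor DAP12, was 2.16 to 4.98 TPM in THP-1, 0.388 to 1.22 TPM in NOMO-1 and at most 0.0493 TPM in Kasumi-1. SIGLEC12 was the only listed gene called, and only in comparisons of both cytokines with untreated and with TNFa. That was 1 of 5 tested genes in each, where 26% and 6.59% of all genes were called. The list's median change with both cytokines was 0.25 over 5 tested genes, against -0.19 for all genes.

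Of 13 genes that signal below the receptors, 5 rose with both cytokines in AML lines and none fell, where 26% of all genes were called, 1103 of 15043 higher and 2804 lower. The 4 described here were SOCS3 (2.82 ± 0.58, adjusted p = 0.00495), a feedback inhibitor known to bind the phosphorylated ITIM of CD33, the Src family kinases LYN (2.53 ± 0.32, adjusted p = 0.000443) and SRC (3.53 ± 0.63, adjusted p = 0.00258), and TYROBP (1.82 ± 0.53, adjusted p = 0.0251), which encodes DAP12. LYN went from 19.9 to 141 TPM in Kasumi-1, from 6.73 to 28.2 in NOMO-1 and from 11.1 to 90.1 in THP-1. For TYROBP, 3 of the 5 lines each ended the call when left out. PTPN6, which encodes SHP-1, was higher in AML than in endothelial lines in all 4 conditions (5.91 ± 1.17 untreated, adjusted p = 0.0225), at 13.5 to 422 TPM against 0.219 to 2.87 TPM. Its call in untreated lines was lost without THP-1 (adjusted p = 0.0830) and with either other scaling (0.0720 and 0.0541). With TNFa it was lost with median-of-ratios scaling (0.0820) and without each of 4 lines (up to 0.324), and with both cytokines without each of 2 lines (up to 1.00). SYK, a kinase that activating receptors use, was higher in AML lines with IFNg (3.74, adjusted p = 0.0345) and with both (3.18, adjusted p = 0.0420), and 3 and 2 lines each ended these calls when left out. SYK did not exceed 0.0558 TPM in endothelial libraries, so it passed the filter through AML libraries only. PTPN11, which encodes SHP-2, was not called untreated (-1.97 ± 1.23, adjusted p = 0.394). SOCS3 was lower in AML than in endothelial lines untreated (-3.00, adjusted p = 0.0420), a call that both other scalings ended. TYROBP was higher in AML lines with IFNg (6.59, adjusted p = 0.0335), TNFa (6.65, 0.0178) and both (7.58, 0.000558). It did not exceed 0.273 TPM in endothelial libraries, so it passed the filter through AML libraries only. These differences depend on the pseudocount and give no fold. In the same order, 2, 4 and 2 lines each ended the call when left out. Both other scalings ended the TYROBP call with IFNg, and median-of-ratios scaling ended that with TNFa. In the endothelial lines SOCS3 was the only gene of this list called with both cytokines (2.52 ± 0.71, adjusted p = 0.0323). The list's median change with both cytokines in AML lines was 0.15, against -0.19 for all genes.

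On the ligand side, 5 of 15 tested sialyltransferases were called with both cytokines in AML lines, a share near the 26% of all genes called there. ST3GAL5, which makes the ganglioside GM3, rose by 3.11 ± 0.48 (adjusted p = 0.00133), from 9.64 to 134 TPM in Kasumi-1, from 1.4999 to 10.1 in NOMO-1 and from 1.84 to 31.8 in THP-1. ST3GAL2 rose by 1.02 ± 0.24 (adjusted p = 0.00905). ST3GAL3 (-2.13 ± 0.38, adjusted p = 0.00251), ST3GAL4 (-1.24 ± 0.30, adjusted p = 0.0101) and ST3GAL6 (-0.99 ± 0.31, adjusted p = 0.0326), which add alpha-2,3-linked sialic acid to glycoproteins, fell. The response of ST3GAL5 differed between the cell types (3.90 ± 0.76 higher in AML, adjusted p = 0.0187), although 3 of the 5 lines each ended that call when left out. In endothelial lines ST6GAL1, which adds the alpha-2,6-linked sialic acid, rose with both (1.92 ± 0.49, adjusted p = 0.0193), to 102 TPM in TIME and 122 TPM in iHUVEC, and ST6GALNAC3 fell (-2.47 ± 0.21, adjusted p = 2.13e-05). ST6GALNAC3 was lower in AML than in endothelial lines in each condition (-4.18 ± 0.62 untreated, adjusted p = 0.00757, to -1.94 ± 0.56 with both, adjusted p = 0.0291). The call with both was lost when mitochondrial genes were removed (0.0642), under median-of-ratios scaling (0.0956) and without each of 2 lines (up to 0.126), and the call with TNFa without THP-1 (0.0548). No enzyme of sialic acid synthesis was called in any comparison. In the row read for each gene, only NEU3 of the sialidases was expressed enough to be tested, and it was not called. NEU1 was at 0 to 1.30 TPM in its row, and other rows of that name were not searched.

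Among 10 proteins known to carry or act as Siglec ligands, LGALS3BP rose with IFNg in AML (4.33 ± 0.64, adjusted p = 0.00685) and endothelial lines (5.41 ± 0.79, adjusted p = 0.00867), and with both cytokines in each. When left out, 4 lines each ended its call with IFNg in AML lines, and 3 lines each ended that in endothelial lines. With both cytokines in AML lines PTPRC (2.03, adjusted p = 0.0129), MUC1 (1.80, 0.0227) and VCAM1 (3.79, 0.0147) also rose. SPN, which encodes CD43, fell (-1.56 ± 0.28, adjusted p = 0.00267). Of 10 tested genes, 4 were thus called higher and 1 lower, where 26% of all genes were called. The calls of PTPRC, MUC1 and VCAM1 were ended by 4, 4 and 2 lines when each was left out. In endothelial lines MUC1, VCAM1 and CD47 rose with LGALS3BP under both cytokines, where 14.5% of all genes were called. Some single lines, when left out, ended the calls of MUC1, VCAM1 and CD47 there. PODXL, a sialomucin, was lower in AML than in endothelial lines in all 4 conditions (-5.10, -5.16, -6.46 and -6.38 in the order untreated, IFNg, TNFa, both), although 2 or 3 lines each ended every such call when left out and both other scalings ended the untreated one. CD52 was higher in AML lines with IFNg (3.76, adjusted p = 0.0458) and both (3.28, adjusted p = 0.0292), calls that median-of-ratios scaling ended. SPN was higher untreated (5.12, adjusted p = 0.0245), with IFNg (4.76, 0.0347) and with TNFa (4.82, 0.0327). PTPRC was higher with TNFa (4.50, 0.0385) and with both (5.46, 0.0182), and both other scalings ended the latter call. These 3 genes did not exceed 0.212 TPM in endothelial libraries, so they passed the filter through AML libraries only. Leaving out some single lines ended each of these calls. SELPLG, which encodes PSGL-1, was lower in AML lines with both cytokines than with IFNg alone (-1.46, adjusted p = 0.0173), a call that 3 lines each ended when left out. CD24, known to bind SIGLEC10, was 0.0140 to 5.39 TPM in AML libraries and at most 0.387 TPM in endothelial ones and was not called in any comparison in which it was tested. The median change of this list with both cytokines was 0.69 in AML and 0.72 in endothelial lines, against -0.19 and -0.22 for all genes. All 69 called values of listed genes kept their sign under both other scalings, but 11 lost the call with median-of-ratios scaling and 8 with mitochondrial genes removed. Leaving out 1 of the 5 lines ended 55 of the 69, and a fit without the line term ended 41 of the 42 it could be made for.

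The 5 genes whose log2(TPM + 1) followed CD33 most closely over the 20 libraries were PSD4 (Pearson r = 0.989), S100A4 (0.983), PARVG (0.983), NCF4 (0.980), a subunit of the phagocyte oxidase, and MYO1F (0.978), among 15042 genes. Over 20 libraries such an r mostly reflects the gap between cell types. Over the 12 AML libraries the closest genes were AURKAIP1 (0.957), FAM174C (0.946), STUB1 (0.934), SART1 (0.930) and MTIF3 (0.920), and the 2 sets share no gene. The libraries share lines and the NOMO-1 composition, so these values are descriptions.

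Promoters of 6 of the 7 members were in the RefSeq table (GRCh38.p14; SIGLEC1 is not among them) and were searched on both strands from 250 bases before to 50 after the start. The PU.1 core GAGGAA, a core sequence for the myeloid factor encoded by SPI1, was found in CD33, SIGLEC6, SIGLEC7 and SIGLEC9 and not in SIGLEC5 or SIGLEC10, and 27.9% of all 35093 promoters hold it. The interferon-stimulated response element core GAAANNGAA was found in none of the 6, and 8.11% of all promoters hold it. The motifs searched can overlap each other, and a match is no evidence of binding. The 100 bases before the CD33 start (chr19:51224980-51225079, plus strand, RefSeq) are shown because CD33 parts the cell types, with the PU.1 core, on the minus strand at positions -90 and -10 from the start, in capitals.
CD33 upstream: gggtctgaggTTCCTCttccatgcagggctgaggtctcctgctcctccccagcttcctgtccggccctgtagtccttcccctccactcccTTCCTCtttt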

How the data were processed

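The authors deposited TPM per gene and per transcript for 20 libraries. Per the labels' protocols, QIAGEN RNeasy kits and a NovaSeq instrument were used. Salmon 1.2.0, DESeq2 1.28.1 and GRCh38.p13 are named, per the submitters' processing notes; which transcript annotation they went with is not known here. TPM keeps no depth, so no count test was used. Column totals were 947940 to 995175 TPM.

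Ensembl IDs were named from a gene name table and GENCODE v29. ENSG00000268500 is a second SIGLEC5 row. The columns labelled x2 were read as both cytokines.

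TPM was taken as log2(TPM + 1) and tested in limma 3.58.1 (R 4.3.3) with a variance trend and Benjamini-Hochberg adjustment over all genes at 1 TPM or more in at least 2 libraries. Cell types were compared per condition over 5 libraries. Treatments were fitted over 20 libraries with cell line as a term, since the labels show that libraries of a line pair across conditions; their deviations from group means correlated at 0.652 to 0.904 in 30 pairs. The fits were also run on simulated data. The outcome is not given here and lends these results no weight. Nothing states that libraries of 1 line came from separate cultures, so p-values measure only the spread between these samples. Shares were tested for transcripts at a mean of 10 to 90% of genes averaging 5 TPM or more.

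The members and lists were chosen with earlier results of these data known. The rule for named genes took all members, their transcripts at a mean share of 10% or more, the 5 genes most like CD33, and called genes of the lists, or the 3 largest changes where none was called. Of these, transcripts are described for CD33 and SIGLEC1, and lists with no call by their counts. Alternatives were other scalings, pseudocounts, filters and fits, and each line left out. A listed gene and a motif are not reported here.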

Additional observations from a re-analysis of the deposited data

How the results depend on the processing

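Of the 152 values for members and their transcripts, none changed direction where called, 52 alternative values lost a call and 20 gained one, against 1372 that did neither. Few of the 152 were called to begin with, so most of the 1372 had no call to lose. The 52 losses all fall on those few. The number of members called moved as follows, and the cause was not tested. The share of all genes called under each alternative is not given here. A moved count therefore cannot be told from a moved share of all genes. Leaving out 1 line at a time gave 0 to 1 members called for AML against endothelial lines untreated, 0 to 2 with IFNg, 0 to 3 with TNFa and 0 to 2 with both. In AML lines it gave 0 to 1 for IFNg, 1 to 1 for both cytokines, 0 to 1 for both against IFNg, 0 to 3 for both against TNFa, 0 to 1 for the response to both between cell types, and 0 to 2 transcripts for both. Against endothelium with IFNg, 2 were called in place of 1 with median-of-ratios scaling, mitochondrial genes removed, a pseudocount of 0.1 or a minimum of 5 TPM. With TNFa the minimum of 5 TPM gave 2 and no filter 0, and with both cytokines no filter and no trend gave 0 in place of 2. Median-of-ratios scaling gave 1 for IFNg and 1 for TNFa in place of 0 in AML lines, 2 for both, 2 for both against IFNg, 1 for both against TNFa and 1 for the response to both. Removing mitochondrial genes gave 2 for both against IFNg and 1 for the response to both. The pseudocount of 0.1 gave 1 for IFNg and 0 for both against IFNg. No filter gave 0 for both against IFNg, 1 for both against TNFa and 1 transcript for both. AML libraries alone gave 0 for both against IFNg and 0 for both against TNFa. With no replicate block, that is without the line term, 0 members were called for both cytokines (SIGLEC1 at 4.08, adjusted p = 0.0631), for both against IFNg and for both against TNFa, and 0 transcripts for both; the block changed no other count. TPM without depth gives no counting error for the members under 1 TPM.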
